A study of Saccharomyces cerevisiae with 64 samples.

Results

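The nuclear genes of the yeast respiratory chain and ATP synthase were followed through a time course of sporulation in the kfc1 mutant and in wild type. Members were 37 genes taken by name from the 6660 genes with values: SDH1 to SDH4 of complex II, 9 genes of complex III, the 2 cytochrome c genes, 9 genes of complex IV, and 13 genes of the ATP synthase including its inhibitor INH1. Those the results turn on are CYC7 (YEL039C) and CYC1 (YJR048W), COX5B (YIL111W) and COX5A (YNL052W), SDH2 (YLL041C), QCR10 (YHR001W-A), ATP5 (YDR298C), ATP1 (YBL099W), ATP20 (YPR020W) and INH1 (YDL181W). All 37 had a value in every group. The names set the membership, though the members were chosen with earlier results of these data known.

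The respiratory chain of budding yeast passes electrons from succinate, through complex II, and from NADH to coenzyme Q, then through complex III and cytochrome c to complex IV, where oxygen is reduced. The proton gradient built on the way drives the ATP synthase. Sporulating yeast lives on acetate and cannot ferment it, so respiration is needed for meiosis. Complexes III and IV and the ATP synthase also hold subunits made from mitochondrial DNA, and those are not among the members. A pair of the proteins exists in alternative forms: cytochrome c as iso-1 (CYC1) and iso-2 (CYC7), and subunit 5 of cytochrome c oxidase as COX5A and COX5B. In growing cells CYC1 and COX5A are the forms used with oxygen, and CYC7 and COX5B are repressed by oxygen and heme.

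Polyadenylated RNA of Saccharomyces cerevisiae S288c was sequenced under sporulation in 64 samples that form 32 groups of 2 replicates. The kfc1 mutant and wild type were each sampled in 3 arms. Without overexpression, and with IME1 overexpressed from a PzevIME1 construct, the times were 0, 2, 4, 6, 8 and 12 h. In the double overexpression of IME1 and RIM4, from PzevIME1 and PzevRIM4, they were 0, 12, 24 and 48 h. Ime1 is the transcription factor that starts meiosis, and Rim4 an RNA-binding protein needed for it. The kfc1 gene, YGL036W (VIR1 in RefSeq), codes for a member of the methyltransferase that places m6A on messenger RNA in early meiosis. Wild type in the first 2 arms (24 samples) was taken over by the submitters from another series, so there genotype and series of origin cannot be told apart. In the IME1 and RIM4 arm both genotypes belong to this series.

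The deposited values are log2 ratios with the replicates of a group already combined, 1 value per gene and group, so no replicate error, read depth or test could be had. Values below are log2 ratios to the wild-type 0 h group without overexpression, unless a difference is named, and 1 unit is a 2-fold difference. A ratio says nothing of how abundant a transcript is, so levels of different genes are not compared. Higher and lower are used of a gene only where its log2 difference, averaged over the times compared, was at least 1 in size and kept 1 sign throughout. For 1 time point only the size mattered. Beside each count stands the share of all genes with a value that passed the same rule. In RNA from whole cultures, fewer cells that express a gene and less RNA per cell cannot be told apart. VIR1 stood between -9.41 and -4.70 in the 16 kfc1 groups and between -0.07 and 2.07 in the 16 wild-type groups. IME1 was at 2.71 to 4.02 after 0 h where it was overexpressed. Its 0 h values already differed: in the IME1 arm it was at 0.59 in kfc1 and 1.94 in wild type, and in the IME1 and RIM4 arm at 1.22 in kfc1 and 0.14 in wild type. RIM4 was at 3.42 to 4.36 after 0 h in its own arm and was also high, at 2.39 to 3.72, with IME1 alone. The median of all genes lay between -0.03 and 0.01 in the 32 groups.

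The promoters of 6 members are printed: the 2 isoform pairs, ATP20 and ATP5. CYC7, COX5B and ATP20 were the highest of their complex in most groups after 0 h. ATP5 had the lowest mean difference from 0 h without overexpression and with IME1 and RIM4. CYC1 and COX5A are printed as the partners in the pairs. Each run is the 200 bases that lie 300 to 101 bases before the start codon, read 5′ to 3′ on the strand of the gene from the RefSeq R64 assembly, which underlies the sacCer3 build named in the submitters' notes. Capitals mark matches, on either strand, to 4 short motifs searched in the full 300 bases. They were CCAAT, the core bound by the Hap2/3/4/5 activator of respiratory genes, GGCGGC, the core of URS1, the site through which Ume6 and Ime1 act, AGGGG, the stress element, and ATTGTT, the core of the site for the hypoxic repressor Rox1. In the ATP5 run a CCAAT match overlaps an ATTGTT match.
CYC7 (chrV:80078-80277, minus strand): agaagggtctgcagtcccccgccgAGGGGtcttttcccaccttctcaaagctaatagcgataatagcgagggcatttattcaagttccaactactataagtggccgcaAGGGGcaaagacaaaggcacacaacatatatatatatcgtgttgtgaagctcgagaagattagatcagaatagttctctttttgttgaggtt
CYC1 (chrX:526035-526234, plus strand): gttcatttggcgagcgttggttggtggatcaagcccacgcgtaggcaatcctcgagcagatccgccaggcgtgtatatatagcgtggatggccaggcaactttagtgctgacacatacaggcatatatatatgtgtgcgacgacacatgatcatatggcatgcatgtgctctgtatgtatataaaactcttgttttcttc
COX5B (chrIX:154922-155121, plus strand): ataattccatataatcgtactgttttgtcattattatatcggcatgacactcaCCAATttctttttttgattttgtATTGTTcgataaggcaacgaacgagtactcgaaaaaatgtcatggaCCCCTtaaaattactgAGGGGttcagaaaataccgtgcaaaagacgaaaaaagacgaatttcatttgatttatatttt
COX5A (chrXIV:531425-531624, plus strand): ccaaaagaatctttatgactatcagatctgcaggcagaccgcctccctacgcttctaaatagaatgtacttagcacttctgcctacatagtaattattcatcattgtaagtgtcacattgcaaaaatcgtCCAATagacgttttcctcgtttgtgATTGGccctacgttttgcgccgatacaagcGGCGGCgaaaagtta
ATP20 (chrXVI:599570-599769, plus strand): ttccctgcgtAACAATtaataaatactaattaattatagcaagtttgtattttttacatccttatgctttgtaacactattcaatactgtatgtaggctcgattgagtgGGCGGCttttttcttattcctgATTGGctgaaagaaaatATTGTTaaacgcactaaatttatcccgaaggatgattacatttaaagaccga
ATP5 (chrIV:1058915-1059114, minus strand): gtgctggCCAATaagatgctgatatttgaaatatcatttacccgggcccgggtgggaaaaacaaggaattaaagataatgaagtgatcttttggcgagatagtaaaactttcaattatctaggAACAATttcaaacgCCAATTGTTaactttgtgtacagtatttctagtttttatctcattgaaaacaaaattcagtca

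CCAAT was found in 32 of the 37 member promoters (86.5%), against 41.8% of 5984 promoters of the same length. It was present in 13 of 13 ATP synthase promoters and 4 of 4 of complex II, in 7 of 9 of complex III and 8 of 9 of complex IV. Neither cytochrome c promoter held it within 300 bases. GGCGGC occurred in 5 members, namely SDH1, SDH2, QCR6, COX5A and ATP20, which is 13.5% of members against 5.21% of all promoters. AGGGG was present in 16 members (43.2% against 22.2%) and ATTGTT in 17 (45.9% against 34.1%). Of these members, CYC7 held AGGGG at 2 places and none of the other motifs, and CYC1 held none of the 4. A match of letters is a description of the window and not evidence of binding, and the lack of a match is not evidence against it. Only the exact letters were searched, not variants of a site.

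The complexes kept a fixed order. In 26 of 26 groups sampled after 0 h, the median of cytochrome c was above that of complex II, complex II above complex III, complex III above complex IV, and the ATP synthase was lowest. Cytochrome c is only 2 genes, and its place rested in part on CYC7 alone. In wild type without overexpression CYC1 was at -0.04, 0.24, -0.06, -0.12 and -0.32 from 2 to 12 h, below the complex II median each time. In kfc1 CYC1 was below it at each of these times but 6 h. With IME1 at 2 to 8 h CYC1 was above it in both genotypes. At 0 h, 4 of the 5 groups other than the one that all ratios refer to had the order from complex II down to the ATP synthase. All these columns share that one denominator, so they are not independent of one another. Taken from the 0 h group of the same arm and genotype, the order did not always hold. The median difference in kfc1 with IME1 was -0.50 for complex III and -0.43 for complex IV. In wild type with IME1 and RIM4 it was -1.12 for complex II and -1.11 for complex III. In kfc1 without overexpression the ATP synthase median was 0.18 at 0 h and -0.93, -0.88, -0.74, -0.81 and -0.98 at 2, 4, 6, 8 and 12 h. The wild-type medians at the same later times were -0.52, -0.42, -0.55, -0.77 and -1.06. The ATP synthase median was thus below 0 at every later time in both genotypes, farther in kfc1 at 2 to 6 h and by similar amounts at 8 and 12 h. The complex II median was 0.31, 0.40, 0.78, 0.84, 0.76 and 0.39 from 0 to 12 h in kfc1, and 0.11, 0.55, 0.39, 0.44 and 0.20 from 2 to 12 h in wild type. It was thus above its 0 h value throughout, but by under 0.1 in kfc1 at 2 and 12 h. With IME1 and RIM4, the ATP synthase median was -0.17, -1.97, -2.09 and -2.17 at 0, 12, 24 and 48 h in kfc1. In wild type it was 0.02, -1.05, -2.05 and -2.00. Both genotypes ended near a 4-fold reduction, and kfc1 was already there at 12 h.

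**Figure D1:**
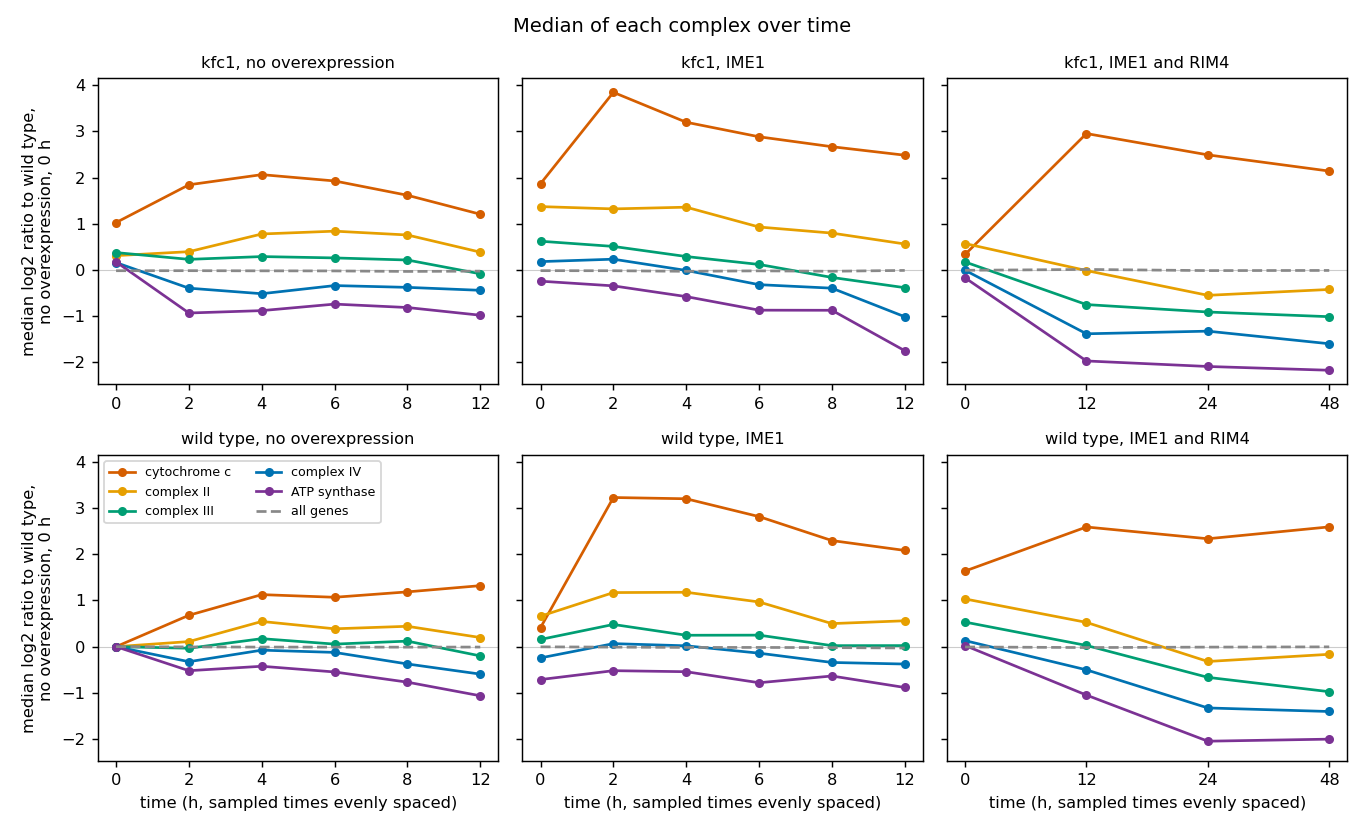
Median log2 ratio of each complex to wild type without overexpression at 0 h (vertical axis) against the sampled times in h (horizontal axis, evenly spaced), with kfc1 in the upper row, wild type in the lower row and 1 column of panels per arm. Cytochrome c (2 genes) lies highest and the ATP synthase lowest in each of the 26 groups after 0 h, and the median of all genes (dashed) lies close to 0.

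Within complexes the same genes tended to hold the ends. CYC7 was the highest of the 37 in 26 of 26 groups after 0 h. In complex II the iron-sulfur subunit SDH2 was highest in 23 and the membrane anchor SDH3 lowest in 23 of the 26. In complex III cytochrome c1 (CYT1) was highest in 24 and the small subunit QCR10 lowest in 25. COX12, which encodes a peripheral subunit, was lowest of complex IV in 21, and COX5B highest in 18. ATP20, subunit g, which helps the enzyme form dimers, was highest of the ATP synthase in 16.

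**Figure D2:**
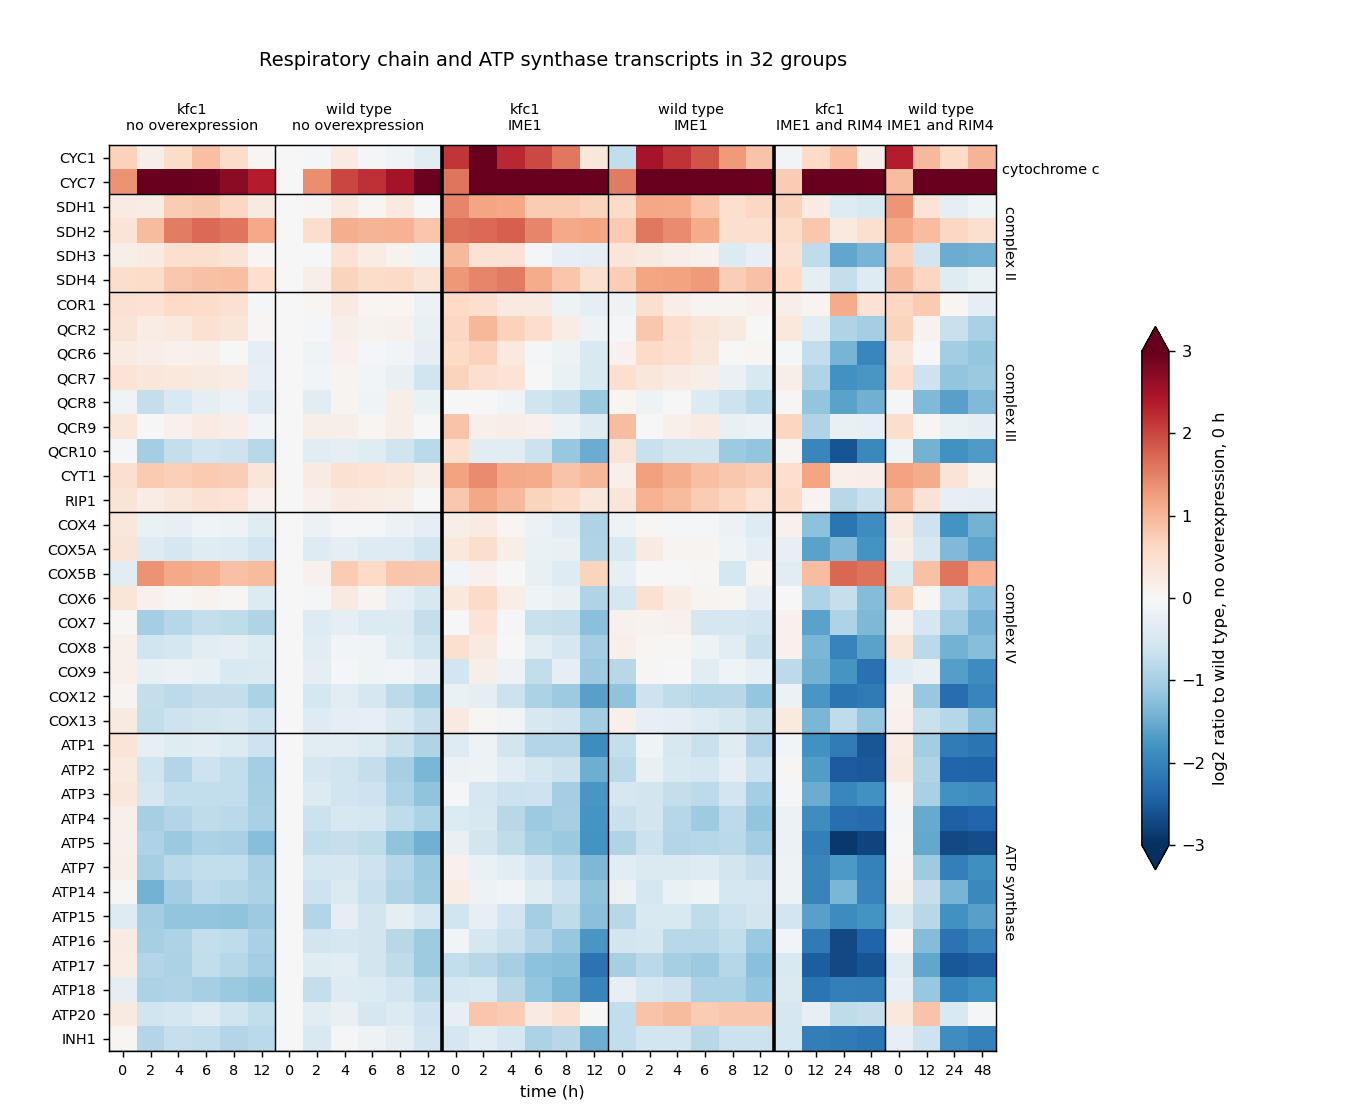
Log2 ratio to wild type without overexpression at 0 h of each of the 37 members (rows, grouped by complex) in the 32 groups (columns, by arm, genotype and time in h). Red is higher and blue lower, with colours saturated beyond 3 in size, and the ATP synthase rows other than ATP20 are below 0 in all 26 groups after 0 h, farthest with IME1 and RIM4. In the IME1 arm many of them were below 0 at 0 h already.

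Of the isoform pairs, CYC7 was the highest member in 26 of 26 groups after 0 h, and COX5B the highest of complex IV in 18. With IME1 and RIM4, the complex IV median change from 0 h was -1.38 in kfc1 and -1.32 in wild type. COX5A, itself part of that median, changed about as much in kfc1 and was the median gene in wild type. In kfc1 without overexpression CYC7 was at 1.36 at 0 h and at 3.52, 3.57, 2.95, 2.70 and 2.36 at 2, 4, 6, 8 and 12 h. In wild type its values at 2 to 12 h were 1.40, 2.01, 2.20, 2.49 and 2.96. The kfc1 values were therefore highest early and the wild-type values highest at 12 h, where wild type lay above kfc1. CYC1 in the same arm was at 0.70, 0.17, 0.56, 0.90, 0.54 and 0.06 from 0 to 12 h in kfc1, and at -0.04, 0.24, -0.06, -0.12 and -0.32 from 2 to 12 h in wild type. With IME1, CYC7 was at 1.60, 4.45, 4.15, 3.79, 3.76 and 4.63 in kfc1 and at 1.56, 3.98, 4.23, 3.74, 3.31 and 3.31 in wild type. CYC1 in that arm was highest at 2 h in both genotypes and lower at each time after. It was at 2.14, 3.24, 2.25, 1.98, 1.58 and 0.34 in kfc1, and at -0.73, 2.48, 2.18, 1.89, 1.28 and 0.86 in wild type. With IME1 and RIM4, CYC7 was at 0.75, 5.32, 4.08 and 4.10 in kfc1 and at 0.92, 4.21, 4.10 and 4.16 in wild type. CYC7 minus CYC1 was above 0 in 26 of 26 groups after 0 h, between 1.21 and 4.73, and in 3 of the 5 groups at 0 h. This did not always mean a change from 0 h. In wild type with IME1 it was 2.29 at 0 h already, and 1.51, 2.05, 1.86, 2.03 and 2.46 from 2 to 12 h. In kfc1 with IME1 it was -0.55 at 0 h and 1.21 to 4.29 later.

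COX5B and COX5A parted at every later time in 2 of the 3 arms, and at 12 h in the other. Without overexpression COX5B was at -0.34, 1.34, 1.13, 1.09, 0.89 and 0.95 from 0 to 12 h in kfc1, and at 0.12, 0.75, 0.60, 0.83 and 0.80 from 2 to 12 h in wild type. COX5A was below 0 at each of these later times in both genotypes, between -0.57 and -0.37 in kfc1 and between -0.59 and -0.30 in wild type. COX5B minus COX5A was 1.26 to 1.73 in kfc1 and 0.50 to 1.40 in wild type at 2 to 12 h. With IME1 alone the difference was below 0 at 2 to 8 h in both genotypes. At 12 h it was above 0, at 1.57 in kfc1, as wide as in kfc1 without overexpression, and at 0.38 in wild type. With IME1 and RIM4 it was widest, 2.54 to 3.43 in kfc1 and 1.37 to 2.93 in wild type at 12 to 48 h. COX5B itself was at -0.32, 0.93, 1.73 and 1.63 in kfc1 in that arm, and at -0.40, 0.88, 1.60 and 1.04 in wild type. Both pairs are paralogs with similar coding sequences. CYC7 and CYC1 were identical at 78.1% of aligned bases, with a longest identical run of 35 bases, and COX5B and COX5A at 69.3%, with a longest run of 11. How reads that match both copies were counted is not given in the sources used here, so the cytochrome c pair is the less certain one.

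**Figure D3:**
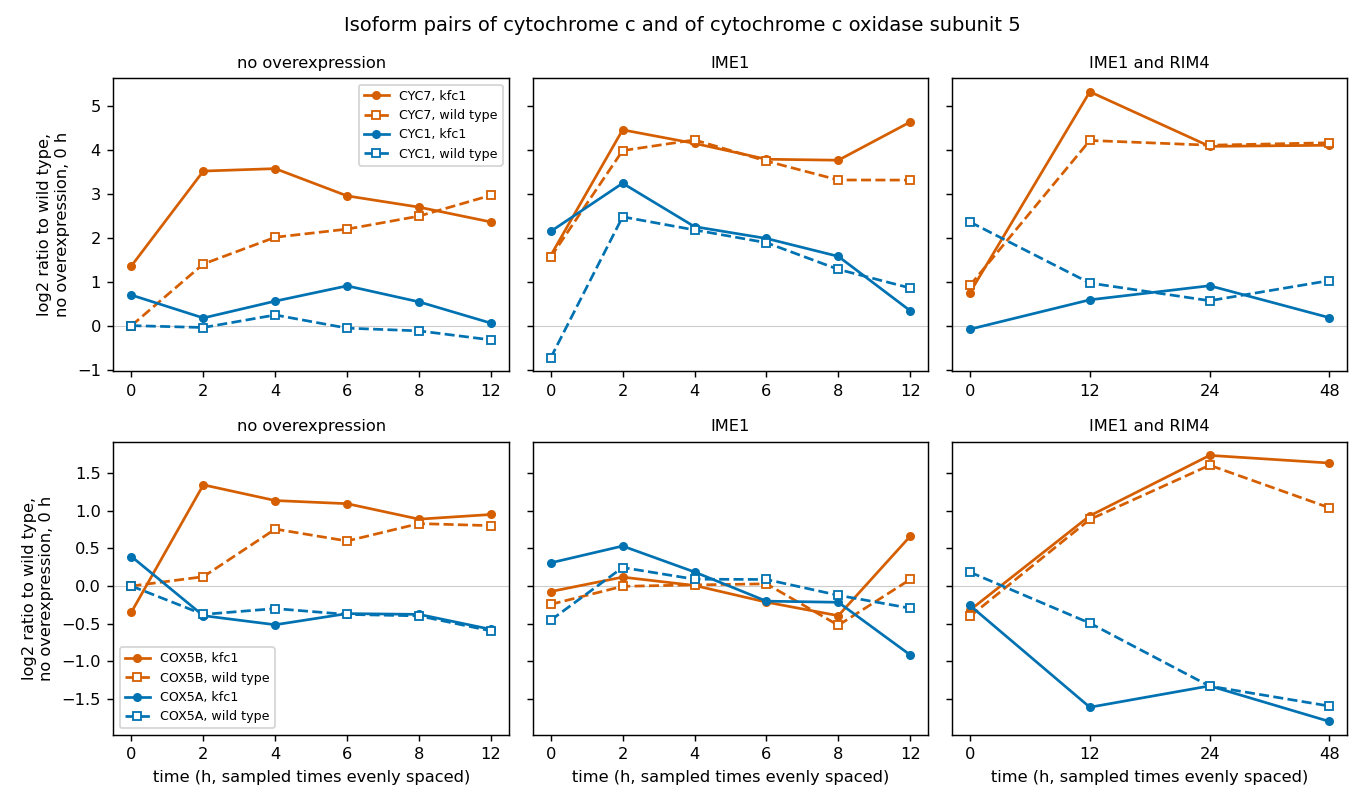
Log2 ratio to wild type without overexpression at 0 h of CYC7 and CYC1 (upper row) and COX5B and COX5A (lower row) against the sampled times in h, with 1 column of panels per arm, filled symbols for kfc1 and open symbols for wild type. CYC7 lies above CYC1 in every group after 0 h. COX5B lies above COX5A after 0 h without overexpression and with IME1 and RIM4, and of the later times with IME1 only at 12 h.

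Over time without overexpression, kfc1 at 2 to 12 h had 3 members higher than at 0 h (share of all genes 6.87%) and 8 lower (4.11%). The 3 were CYC7, with a mean difference of 1.66, COX5B with 1.43 and SDH2 with 1.00. All 8 lower members encode parts of the ATP synthase. ATP5, the subunit that ties the catalytic head to the stalk, differed by -1.19 on average, with single times between -1.41 and -1.07. The delta subunit ATP16 followed at -1.14 and ATP17 at -1.10, then ATP3 (gamma), ATP2 (beta), ATP14, ATP4 and ATP7 between -1.07 and -1.03. The median difference of the 13 ATP synthase genes was -1.03, of complex IV -0.59, of complex III -0.20 and of complex II 0.24, and over all genes it was 0.00. Wild type at 2 to 12 h had 1 member higher than at 0 h (2.37%), CYC7 with 2.21, and 0 lower (1.29%). All 13 ATP synthase genes were below their 0 h value on average there too, with a median of -0.67, and ATP5 was again lowest at -0.97. SDH2 averaged 0.89 and COX5B 0.62 in wild type. At 12 h alone, 9 members were lower than at 0 h in kfc1 (3.72%), namely 8 ATP synthase genes and COX12, and 7 in wild type (2.45%), all of the ATP synthase. The 1 member higher at 12 h was COX5B in kfc1 (7.02%) and CYC7 in wild type (4.14%). CYC7 in kfc1 fell just short of the rule then, with a difference of 0.999. A difference between the genotypes in this change could not be tested.

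With IME1, the change over time rests on the 0 h group, which differs between the genotypes, also in IME1 itself (0.59 in kfc1 and 1.94 in wild type), and the part of this in the values below was not tested. The wild-type 0 h group of this arm had a spread over all genes of 0.94 (SD of log2 ratios), where the 4 remaining 0 h groups other than the common denominator had 0.34 to 0.67. In kfc1 at 2 to 12 h, 1 member was higher than at 0 h (9.69%), CYC7 at 2.56, and 1 lower (4.99%), QCR10 at -1.29. At 12 h alone, 24 members were lower in kfc1 (11.1%) and 1 higher (14.9%), and 10 of the lower ones were of the ATP synthase. In wild type at 2 to 12 h, 3 were higher (24% of all genes): CYC1 at 2.47, CYC7 at 2.16 and ATP20 at 1.57. QCR10 was the 1 lower member (12.6%), at -1.19. The share of all genes counted in wild type was thus much larger than that of members. The median ATP synthase difference from 0 h was -0.63 in kfc1, with 12 of 13 genes below 0, and -0.02 in wild type, with 7 of 13 below 0. Of the wild-type members at 12 h alone, 2 were lower (14.5%) and 3 higher (25.2%). ATP20 was at 0.83, 0.75, 0.24, 0.46 and -0.01 from 2 to 12 h in kfc1 and at 0.85, 0.94, 0.76, 0.81 and 0.80 in wild type, the 1 ATP synthase gene above 0 in this arm at 2 to 8 h in both genotypes.

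With IME1 and RIM4, most members were lower at 12 to 48 h than at 0 h in both genotypes. In kfc1 2 members were higher (20.4%) and 28 lower (13.2%), and in wild type 2 were higher (15.5%) and 27 lower (11.4%). The members' share of lower genes was therefore several times that of all genes in each genotype. CYC7 averaged 3.75 in kfc1 and 3.24 in wild type, and COX5B 1.75 in kfc1 and 1.58 in wild type, and these were the higher members in both. The lower ones included 12 of 13 ATP synthase genes in each genotype, ATP20 being the exception at -0.06 in kfc1 and -0.20 in wild type. ATP5 was at -0.17, -2.06, -2.88 and -2.75 at 0, 12, 24 and 48 h in kfc1, and at 0.01, -1.53, -2.70 and -2.65 in wild type. The mean differences of ATP5 were -2.39 in kfc1 and -2.30 in wild type, the lowest of all members in both. ATP1, the alpha subunit, was at -0.08, -1.82, -2.09 and -2.56 in kfc1 and at 0.22, -1.05, -2.10 and -2.19 in wild type. Both groups of values fall through 24 h, and the genotypes differ most at 12 h. INH1, the inhibitor that stops the enzyme from running backwards, was at -0.54, -2.06, -2.13 and -2.17 in kfc1 and at -0.25, -0.62, -1.87 and -2.03 in wild type.

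Of complex IV 7 of 9 genes were lower in each genotype in this arm. COX4 averaged -1.88 in kfc1 and -1.55 in wild type, COX12 -1.85 in kfc1 and -1.89 in wild type, and COX5A -1.32 in both. Of complex III 7 of 9 were lower in kfc1 and 5 of 9 in wild type. QCR10 averaged -2.24 in kfc1 and -1.52 in wild type. The iron-sulfur protein RIP1 was at 0.58, 0.09, -0.84 and -0.66 in kfc1 and at 0.93, 0.43, -0.25 and -0.26 in wild type. COR1, a core subunit, was with CYT1 among the 2 genes of complex III not lower in kfc1. It was at 0.17, 0.08, 1.11 and 0.43 in kfc1, and at 0.62, 0.78, 0.05 and -0.29 in wild type. Complex II had 2 of 4 lower in each genotype, of which SDH3 averaged -1.69 in kfc1 and -1.86 in wild type. SDH1, the flavoprotein subunit, was at 0.69, 0.24, -0.38 and -0.47 in kfc1 and at 1.33, 0.41, -0.28 and -0.13 in wild type. CYC1 averaged 0.64 in kfc1 and -1.50 in wild type relative to 0 h, where its starting values were -0.08 in kfc1 and 2.36 in wild type.

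**Figure D4:**
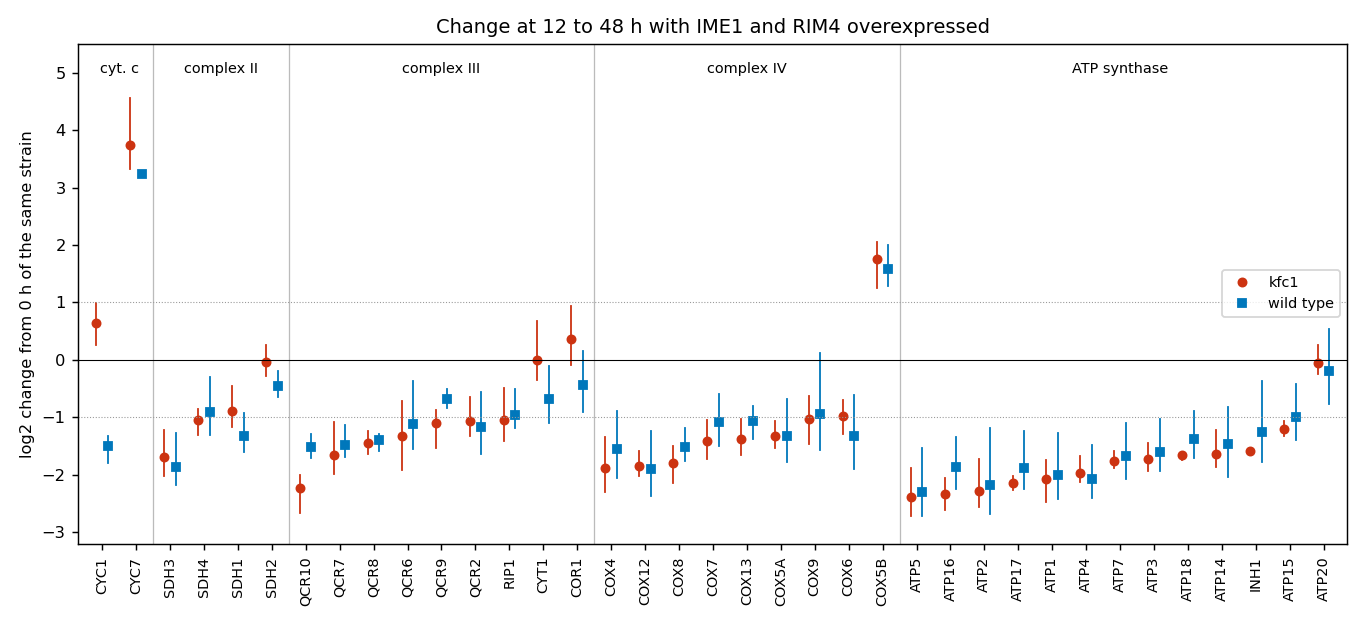
Log2 change at 12, 24 and 48 h from 0 h of the same genotype with IME1 and RIM4 overexpressed (vertical axis), for each of the 37 members (horizontal axis, ordered by complex and by kfc1 value). Circles (kfc1) and squares (wild type) are means over the 3 times and lines span the lowest and highest of them, which is no replicate error. CYC7 and COX5B lie above 1 in both genotypes, and 28 members in kfc1 and 27 in wild type lie at or below -1.

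The kfc1 mutant and wild type were set side by side within each arm, to see whether loss of kfc1 alters these transcripts. Without overexpression, CYC7 was the 1 member higher in kfc1 at 0 h (0.507%), by 1.36, and 0 were lower (1.14%). At 2 to 12 h 0 members were higher (1.43%) and 0 lower (0.370%). CYC7 had the highest mean difference at 0.81, with single times between -0.61 and 2.11, followed by CYC1 at 0.51 and SDH2 at 0.49. The lowest were the epsilon subunit ATP15 at -0.64, INH1 at -0.50 and ATP18 at -0.47. At 2 h alone, CYC7 by 2.11 and COX5B by 1.22 were higher (4.96%) and 0 lower (4.62%), while 12 of 13 ATP synthase genes were below wild type, with a median of -0.26. At 12 h the ATP synthase median difference was 0.09. All 4 complex II genes were above wild type at each of the 6 times, by medians of 0.22 to 0.50. The median was 0.31 at 0 h already. From 0 h of the same genotype, complex II changed by a median of 0.24 in kfc1 and 0.31 in wild type.

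With IME1, 3 members were higher in kfc1 at 0 h (10.7%) and 0 lower (1.86%): CYC1 by 2.88, CYT1 by 1.05 and COX12 by 1.03. The wild-type 0 h group is the one with the wide spread named above. At 2 to 8 h 0 members were higher (0.200%) and 0 lower (0.277%), and all mean differences fell between -0.27 (ATP20) and 0.37 (SDH2). At 12 h CYC7 was higher by 1.32 (4.29%) and 0 members were lower (4.61%). Yet 31 of 37 were below wild type then, with a median of -0.53 against -0.05 over all genes. The 13 ATP synthase genes were all below wild type, by 0.58 to 0.97 in size, with ATP1 at -0.97, ATP17 at -0.96 and ATP2 at -0.84. ATP1 was at -0.16, -0.54, -0.87, -0.87 and -1.86 from 2 to 12 h in kfc1, against -0.12, -0.48, -0.68, -0.37 and -0.88 in wild type. Taken in order of time from 2 to 12 h, the ATP synthase median difference was 0.07, 0.02, -0.14, -0.35 and -0.74.

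In the IME1 and RIM4 arm, CYC1 was the 1 member lower in kfc1 at 0 h (2.37%), by 2.44, and 0 were higher (0.369%). At 12 to 48 h 0 members were higher (1.49%) and 0 lower (0.922%), with mean differences between -0.68 (ATP20) and 0.36 (COR1). The times differed. At 12 h 7 members were lower (11.1%) and 1 higher (8.06%), CYC7 by 1.11. The lower ones were INH1 at -1.44, ATP14 at -1.29, COX9 at -1.20, COX5A at -1.11, COX7 at -1.10, ATP20 at -1.09 and ATP18 at -1.05. A count of 7 of 37 lower stands beside the 11.1% of all genes that were lower at that time, whereas the median of the 37 was -0.70 and that of all genes -0.03. At 24 h the median of the members was -0.10, with 1 higher (4.07%), COR1 by 1.06, and 0 lower (5.45%). At 48 h it was -0.14, with 0 higher (3.13%) and 0 lower (0.567%). In this arm, where both genotypes come from the same series, the median ATP synthase difference was thus -0.82 at 12 h, -0.12 at 24 h and -0.14 at 48 h.

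**Figure D5:**
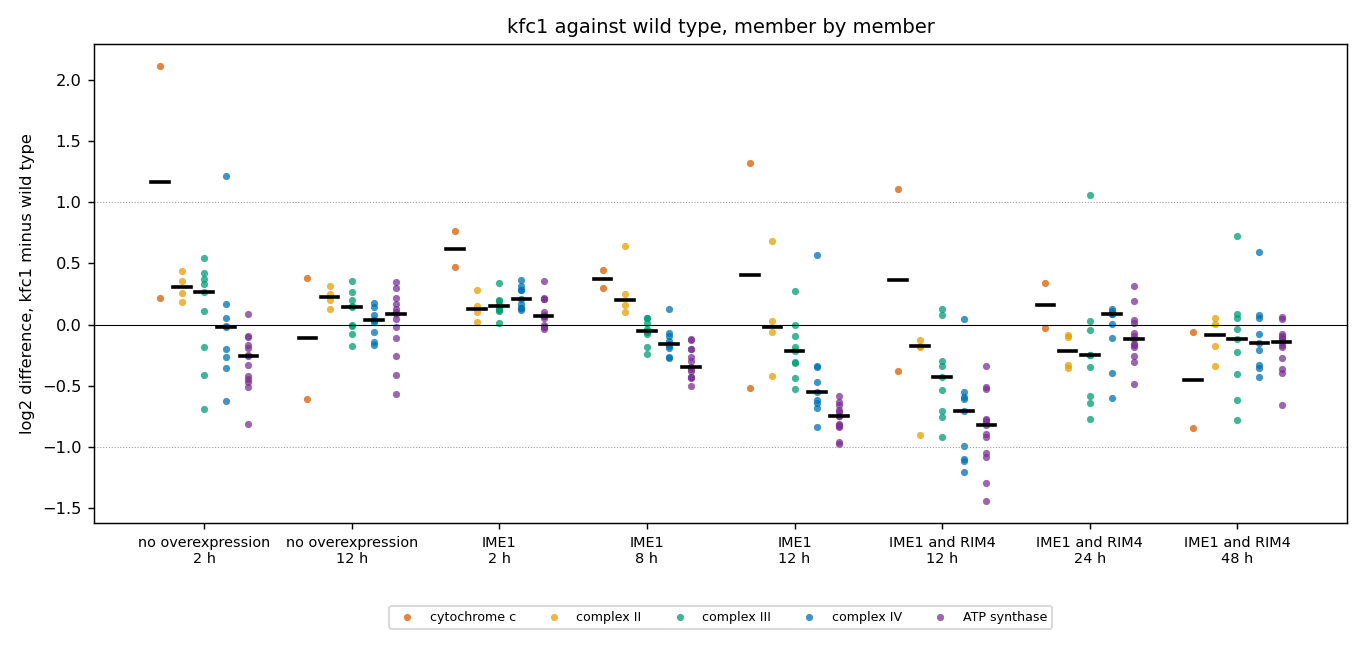
Log2 difference, kfc1 minus wild type, of each member (points, coloured by complex, with the median of each complex as a bar) at 8 combinations of arm and time. The ATP synthase points lie below 0 at 12 h with IME1 and at 12 h with IME1 and RIM4 and spread around 0 at 12 h without overexpression, and dotted lines mark a 2-fold difference.

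Overexpression of IME1 was compared with none at the matched times of 2 to 12 h. In kfc1 3 members were higher (4.06%) and 1 lower (2.84%), and in wild type 3 were higher (6.08%) and 0 lower (3.97%). The higher ones were the same genes in both: CYC1 by 1.43 in kfc1 and 1.80 in wild type, CYC7 by 1.14 in kfc1 and 1.5 in wild type, and ATP20 by 1.03 in kfc1 and 1.26 in wild type. The arms differed already at 0 h. CYC1 was then at 2.14 with IME1 and 0.70 without in kfc1, and at -0.73 and 0 in wild type. CYC7 was at 1.60 and 1.36 in kfc1, and at 1.56 and 0 in wild type. ATP20 was at -0.24 and 0.27 in kfc1, and at -0.73 and 0 in wild type. The part of these 0 h differences in the later ones was not tested. COX5B was the lower member in kfc1, at -1.04, and averaged -0.70 in wild type. The median over the 37 was 0.01 in kfc1 and 0.12 in wild type, with members on both sides of 0: 18 were below 0 in kfc1 and 13 in wild type. In wild type SDH1 at 0.71, CYT1 at 0.62 and RIP1 at 0.62 came next to the 3 counted genes. IME1 and RIM4 were compared with IME1 alone at 12 h, the 1 later time both arms share. In wild type the IME1 samples were taken over from another series and the IME1 and RIM4 samples were not. There the added RIM4 and the series of origin cannot be told apart. In kfc1 both arms belong to this series. In kfc1 0 members were higher (2.06%) and 0 lower (2.72%), and in wild type 0 were higher (8.98%) and 0 lower (5.97%). CYC7 was the highest difference in each, at 0.69 in kfc1 and 0.90 in wild type. Medians over the members were -0.29 in kfc1 and -0.06 in wild type.

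Beyond the members, 93 genes for assembly factors, other subunits, heme and coenzyme Q synthesis, carriers, dehydrogenases and regulators were followed. Under IME1 and RIM4, 10 of the 93 were higher (20.4% of all genes) and 25 lower (13.2%) at 12 to 48 h than at 0 h in kfc1, and 6 were higher (15.5%) and 22 lower (11.4%) in wild type. Of the 23 complex IV assembly genes 6 were lower in each genotype, and 1 was higher in kfc1 and 0 in wild type. Of the 10 ATP synthase assembly genes 1 was higher and 0 lower in each genotype, which is near the shares of all genes for a list of this size. Without overexpression 4 were higher (6.87%) and 7 lower (4.11%) in kfc1, and 4 higher (2.37%) and 0 lower (1.29%) in wild type. Between kfc1 and wild type 0 of the 93 were counted with IME1 and RIM4, at 0 h and at 12 to 48 h. Without overexpression 2 were lower at 0 h (1.14%), namely SHH3, a paralog of SDH3, at -2.16 and the NADH dehydrogenase NDE2 at -1.22. COX26, a small complex IV subunit, was the 1 counted in that arm at 2 to 12 h, higher by 1.19 (1.43%). With IME1, 4 were higher (10.7%) and 1 lower (1.86%) in kfc1 at 0 h, 0 were counted at 2 to 8 h, and 5 were higher (4.29%) and 0 lower (4.61%) at 12 h. The 3 with the widest differences at 12 h were SHH3 at 1.42, CBS1, a translation factor for cytochrome b, at 1.40, and SHH4, a paralog of SDH4, at 1.28. YJL045W (SDH9 in RefSeq), a paralog of SDH1, was higher over time in all 3 arms: by 2.00 in kfc1 and 2.52 in wild type without overexpression, 2.65 in kfc1 and 2.56 in wild type with IME1, and 3.44 in kfc1 and 3.07 in wild type with IME1 and RIM4. HAP4, the activating subunit of the Hap2/3/4/5 factor, was at 0.08, -0.76, 2.53 and 2.05 in kfc1 with IME1 and RIM4, against 0.25, 1.08, 0.89 and -0.09 in wild type. Its order between the genotypes therefore turned between 12 h and 24 h. ROX1 was at -0.91, 0.64, 0.01 and 0.02 in kfc1 in that arm and at -0.51, 0.68, -0.01 and -0.21 in wild type. NDI1, the NADH dehydrogenase that stands in for complex I in yeast, was lower over time there, at a mean difference of -1.04 in kfc1 and -1.44 in wild type.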

How the data were processed

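Polyadenylated RNA of 64 samples was sequenced, with 2 biological replicates in each of 32 groups, per the labels. BWA, DESeq2 and the sacCer3 build are named, with no role, in the submitters' processing notes. How reads were counted, and whether ratios were shrunken, is not given in the sources used here. A single deposited table holds log2 ratios made by the authors, 1 column per group with the replicates combined, for 6660 genes (4 further lines were empty). The log base is not in the header and was taken as 2. Depth and precision per sample are unknown.

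The denominators were worked out from blanks and signs. In 27 columns it was wild type without overexpression at 0 h, and in 5 columns (kfc1, no overexpression, after 0 h) it was kfc1 at 0 h, whose value was added. Shrinkage of ratios, if used, would make changes of genes with few reads look smaller.

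The plan allowed for tests on replicates. The table gives none, so no test was run, and 17 comparisons were read by the 2-fold rule given above, with the share of all genes beside each count. Named were the 3 highest and 3 lowest members of each comparison, COX5A, COX5B, CYC1, CYC7, SDH1, RIP1, ATP1 and INH1 by group, every counted member of the short lists, up to 3 other genes per comparison, and HAP4, ROX1 and NDI1; other members were named after their values were seen. The members and lists were chosen with earlier results of these data known. Gene names and promoters came from RefSeq R64, which held 5986 of the 6660 identifiers. Motifs and coding identity were computed with Biopython 1.88, and all else with Python 3.11.15, pandas 2.3.3, numpy 2.4.6 and matplotlib 3.10.9. Alternatives were other scalings, a 1.5-fold rule, no same-sign rule, each time left out, the kfc1 columns as deposited, another start for the IME1 arm, and the members without COX5B and CYC7.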

Additional observations from a re-analysis of the deposited data

Results flagged for a closer look

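CYC1 differed between the genotypes in opposite directions at 0 h of the 2 overexpression arms. With IME1 it was 2.88 log2 units higher in kfc1, at 2.14 in kfc1 and -0.73 in wild type. In the IME1 and RIM4 arm the difference was -2.44, at -0.08 in kfc1 and 2.36 in wild type. CYC1 was not alone in this. The median difference of the 37 members at 0 h was 0.43 with IME1 (33 above 0), against -0.002 over all genes. With IME1 and RIM4 it was -0.24 (31 below 0), against -0.01 over all genes. Each group is a single combined value, so the difference between the arms was not tested. IME1 itself at these times was at 0.59 in kfc1 and 1.94 in wild type with IME1, and at 1.22 in kfc1 and 0.14 in wild type with IME1 and RIM4, and its part in the CYC1 values was not tested. CYC7 at the same times was at 1.60 in kfc1 and 1.56 in wild type with IME1, and at 0.75 in kfc1 and 0.92 in wild type with IME1 and RIM4.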

How the results depend on the processing

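No paired analysis was possible because the replicates of each group were combined in the deposited ratios, and for the same reason no replicate could be left out. Of 138 counts of members recomputed under an alternative, 111 stayed within 1.5 times the reported count and 27 did not; of 1085 values of members and medians 37 moved by more than their spread over times (at least 0.25) or, for medians, over members, 19 with another start of the IME1 arm and 18 with the kfc1 columns as deposited. None of the values of at least 1 in size changed sign, but 51 smaller ones did, 9 of them medians over the 37 members. The median over time with IME1 in wild type was 0.16, and -0.13 with the other start and -0.06 with columns centred on their mean. The median of IME1 against none in kfc1 was 0.01, and -0.10 with 2 h left out. The cause was not tested except that a 1.5-fold rule is looser and that leaving out CYC7 and COX5B removes members.

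With a 1.5-fold rule, kfc1 against wild type gave 2 counted members without overexpression at 0 h and 1 at 2 to 12 h, 12 with IME1 at 0 h and 18 at 12 h, and 5 with IME1 and RIM4 at 0 h and 3 at 12 to 48 h. Over time the rule gave 22 in kfc1 and 12 in wild type without overexpression, and 15 in kfc1 and 9 in wild type with IME1. IME1 against none gave 8 in wild type, and IME1 and RIM4 against IME1 gave 6 in kfc1 and 3 in wild type. Without CYC7 and COX5B, the count was 0 for kfc1 against wild type without overexpression at 0 h and with IME1 at 12 h, 1 over time in kfc1 with IME1, 0 over time in wild type without overexpression, and 2 for IME1 against none in kfc1. With columns centred on their mean, kfc1 against wild type with IME1 at 0 h gave 1, and kfc1 over time with IME1 gave 4. With 12 h left out, kfc1 against wild type without overexpression gave 1. With 2, 4 or 6 h left out, wild type over time without overexpression gave 2. With 2 h left out, kfc1 over time with IME1 gave 4 and IME1 against none in kfc1 gave 2. With 0 h without overexpression as the start, kfc1 over time with IME1 gave 9.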
